A study of Homo sapiens with 7 samples.

Results

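Intermediate filament and lamin genes were followed in K562, a chronic myeloid leukemia cell line driven by BCR::ABL1, through the development of resistance to dasatinib, a tyrosine kinase inhibitor of that kinase. The members were taken by gene name from the table of read counts and were 10 of the 25702 genes listed there: the neurofilament genes NEFH, NEFM and NEFL, the vimentin gene VIM, the keratin genes KRT8, KRT18 and KRT10, and the lamin genes LMNA, LMNB1 and LMNB2. The list was chosen by the NEFH level, known to be higher in the resistant lines of these same data, so that the NEFH values in resistant and control lines are given as a description, with no test.

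RNA was sequenced from 7 lines, with 1 library a line. The 2 control lines were drug naive K562 and K562 cultured in the vehicle DMSO. The 5 dasatinib resistant (DasR) lines had been cultured long term in dasatinib, and are grouped as early stage (10, 15 and 25 nM) and late stage (50 and 200 nM). This grouping had been made from a clustering of the same libraries. The DasR lines were successive stages of 1 dose escalation, all lines carried BCR::ABL1, and no line was sequenced again, so that the lines of a group stood in for replicates and their spread includes the difference in dose. A p-value measures only the spread between these 7 libraries. Libraries held between 20059656 and 27844799 reads assigned to genes. The labels call the cells erythroblasts, and all 18 genes of an erythroid list were above 3 reads in at least 1 line. This low bar was also passed by most genes of the neuronal, epithelial, fibroblast and myeloid lists described below.

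Intermediate filaments are rope-like polymers of coiled-coil proteins that give cells and nuclei mechanical strength. Most are built from a cell type's own set of genes: vimentin in mesenchymal and blood cells, pairs of a type I keratin such as keratin 18 or 10 and a type II keratin such as keratin 8 in epithelia, and neurofilaments of a light, a medium and a heavy chain in neurons, where the heavy chain does not form filaments by itself. Lamins A/C, B1 and B2 line the inside of the nuclear envelope in nearly all cells.

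The NEFH level was higher in every DasR line than in either control line, and highest in the early stage, whereas VIM fell in both stages and KRT10 fell in the early stage. KRT8 values were higher in all 5 DasR lines but did not pass the threshold, and no lamin gene passed it in any comparison. NEFL and NEFM, which encode the light and medium chains, were at or near 0 in all lines. Levels are given in CPM, the read count of a gene scaled to the total of its library. Calls are from edgeR's quasi-likelihood test over the 10452 genes that reached 10 CPM in 2 libraries or more, at a Benjamini-Hochberg false discovery rate (FDR) under 0.005. Of the 10 members, 8 passed the filter on low counts, and NEFH passed it through the DasR lines alone, since both control lines were under 10 CPM.

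VIM and KRT10 were the members other than NEFH that passed the threshold, and the 250 bases before the RefSeq start of each gene (GRCh38.p14, written 5′ to 3′ along the gene's strand) are printed here to show that the sequences ahead of the 2 genes with lower levels differ in the short motifs they hold. Capitals mark matches to the motifs searched on both strands. In VIM they mark 1 GC box on the plus strand starting 46 bases before the start. In KRT10 they mark, in order, 1 CCAAT box read on the opposite strand, 1 GATA motif and 1 TATA box starting 29 bases before the start.
VIM, chr10:17227991-17228240: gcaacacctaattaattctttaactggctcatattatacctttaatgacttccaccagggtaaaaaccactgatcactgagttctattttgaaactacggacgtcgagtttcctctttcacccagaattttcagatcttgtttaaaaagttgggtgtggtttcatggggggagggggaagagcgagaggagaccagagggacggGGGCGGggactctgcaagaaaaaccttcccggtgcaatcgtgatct
KRT10, chr17:40822615-40822864: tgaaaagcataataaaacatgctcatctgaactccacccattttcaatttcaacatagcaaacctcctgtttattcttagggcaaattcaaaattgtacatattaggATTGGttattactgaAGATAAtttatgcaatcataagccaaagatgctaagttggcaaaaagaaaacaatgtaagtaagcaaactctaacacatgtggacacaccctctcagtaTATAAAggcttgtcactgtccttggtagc

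The motifs searched were the GC box GGGCGG, the TATA box TATAAA, the CCAAT box CCAAT, the GATA motif AGATAA, the AP-1 motif TGACTCA and the E2F motif TTTCGCGC, none of which overlapped another in these windows. Of all 35116 RefSeq promoter windows from 250 bases before to 50 bases after a start, 45.0% held the GC box, 11.5% the TATA box, 34.6% the CCAAT box, 10.3% the GATA motif, 4.95% the AP-1 motif and 0.515% the E2F motif. Such windows were held for 6 members, namely VIM, KRT8, KRT10, LMNA, LMNB1 and LMNB2. For each member only the first window listed was read, so that any other annotated start of the gene was not searched. LMNA held 1 GC box and 1 CCAAT box, LMNB2 held 1 GC box, and the windows of KRT8 and LMNB1 held none of these letters. The GC content was lowest in the KRT10 window, at 37.7%, and highest in that of LMNB2, at 67.7%. These matches describe letters in a window and were not tested as binding sites.

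NEFH encodes the neurofilament heavy chain and lies on chromosome 22 from 29876207 to 29887379 on the plus strand (GRCh37, the build of the alignment). NEFH was at 4.71 CPM in the drug naive line and 4.33 CPM in the DMSO line. It was at 31.6 CPM in K562 10 nM DasR, 31.6 CPM in 15 nM DasR and 30.3 CPM in 25 nM DasR, and at 19.6 CPM in 50 nM DasR and 17.3 CPM in 200 nM DasR. The 3 groups did not overlap, the early stage lines lay within a narrow range, and the late stage lines lay between them and the controls. These CPM rest on 99 and 104 reads in the controls and on 374 to 879 reads in the DasR lines. An antisense lncRNA with no symbol shares 894 bases with the span of NEFH on the minus strand, and whether strand was used in counting is not given in the sources used here, so that reads of the 2 may not be separate. The group means were 4.52 ± 0.273 CPM in the controls (SD, n = 2), 31.2 ± 0.739 CPM in the early stage (SD, n = 3) and 18.5 ± 1.64 CPM in the late stage (SD, n = 2), which is 6.89 times the control mean in the early stage and 4.09 times in the late stage. Late against early stage, which the choice of the list did not use, gave a log2 fold change of -0.76 (SE 0.12, 95% interval -1.04 to -0.47) with an FDR of 0.0179 in edgeR, which did not pass 0.005.

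The partners of NEFH in the neurofilament were not part of this pattern. NEFM, the medium chain gene on chromosome 8 from 24771271 to 24776611 on the plus strand, had 0 reads in all 7 lines. NEFL, the light chain gene on chromosome 8 from 24808468 to 24814235 on the minus strand, had 1 read in the drug naive line, 1 read in the DMSO line and 0 reads in the 5 DasR lines. A count of 0 allows up to 3 reads, which is 0.143 CPM in the drug naive library, so that these levels were below detection at this depth. Neither was tested.

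VIM encodes vimentin, the type III filament protein of mesenchymal and blood cells, and lies on chromosome 10 from 17270240 to 17279592 on the plus strand. Its level was 1313 CPM in the drug naive line and 932 CPM in the DMSO line. It was 245, 236 and 242 CPM in the 10, 15 and 25 nM DasR lines, and 235 and 267 CPM in the 50 and 200 nM DasR lines. All 5 DasR lines lay far below both controls, and the late stage range enclosed the early stage range. VIM fell by 2.24 on the log2 scale in the early stage (SE 0.15, edgeR FDR 0.000173) and by 2.19 in the late stage (SE 0.18, FDR 0.000668). Late against early stage the log2 difference was 0.05 with a 95% interval from -0.31 to 0.42, and was not called (FDR 0.839). The means were 1123 ± 270 CPM in the controls (SD, n = 2), 241 ± 4.66 CPM in the early stage (SD, n = 3) and 251 ± 22.1 CPM in the late stage (SD, n = 2), so that the 2 controls differed from each other by more than any 2 DasR lines did. The antisense gene VIM-AS1 shares 1778 bases with VIM, and an antisense lncRNA with no symbol shares 1509. VIM-AS1 was at 16.9 and 18.0 CPM in the drug naive and DMSO lines and between 4.78 and 8.99 CPM in the 5 DasR lines. The library kit kept strand, but the limit on strand given for NEFH applies, so that the counts of VIM and VIM-AS1 may not be separate.

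KRT8 encodes the type II keratin of simple epithelia and lies on chromosome 12 from 53290971 to 53343738 on the minus strand. Its level was 320 CPM in the drug naive line and 266 CPM in the DMSO line. It was 424, 474 and 472 CPM in the 10, 15 and 25 nM DasR lines, and 565 and 455 CPM in the 50 and 200 nM DasR lines. All 5 DasR lines were above both controls, while the early and late stage lines overlapped. The log2 fold change was 0.62 in the early stage (SE 0.14, edgeR FDR 0.0102) and 0.78 in the late stage (SE 0.15, FDR 0.00924), and neither passed the threshold. Both passed it in DESeq2, with an FDR of 5.24e-05 in the early and 5.08e-06 in the late stage, and in edgeR with no filter on low counts (FDR 0.00443 and 0.00279).

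KRT18 encodes the type I partner of keratin 8 and lies next to KRT8 on chromosome 12, from 53342655 to 53346690 on the plus strand. Its level was 250 CPM in the drug naive line and 232 CPM in the DMSO line. It was 281, 269 and 287 CPM in the early stage lines and 376 and 292 CPM in the 50 and 200 nM DasR lines. The DasR lines were all above both controls, by a smaller margin than for KRT8, with the highest value in 50 nM DasR. The log2 fold change was 0.20 in the early stage (FDR 0.236) and 0.45 in the late stage (FDR 0.0411), and neither passed the threshold. The annotated spans of the 2 keratin genes share 1084 bases on opposite strands, and both genes have processed pseudogenes with rows of their own in the table (KRT8P41 and KRT18P55 among them), so that their counts are uncertain to the extent that reads were split between copies.

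KRT10 encodes a type I keratin of differentiating epidermis and lies on chromosome 17 from 38974369 to 38978866 on the minus strand. Its level was 45.4 CPM in the drug naive line and 46.3 CPM in the DMSO line. It was 21.8, 21.9 and 21.8 CPM in the 10, 15 and 25 nM DasR lines, and 34.7 and 35.5 CPM in the 50 and 200 nM DasR lines. The 3 groups did not overlap, with the late stage between the early stage and the controls, and the lines within each group differed by little. KRT10 fell by 1.09 on the log2 scale in the early stage (SE 0.09, edgeR FDR 0.000246). In the late stage the log2 fold change was -0.41 (SE 0.10, FDR 0.0172), and late against early stage it was 0.68 (SE 0.09, 95% interval 0.48 to 0.88, FDR 0.0167), neither of which passed 0.005. The antisense gene KRT10-AS1 shares 3514 bases with KRT10, and the same limit applies here.

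**Figure D1:**
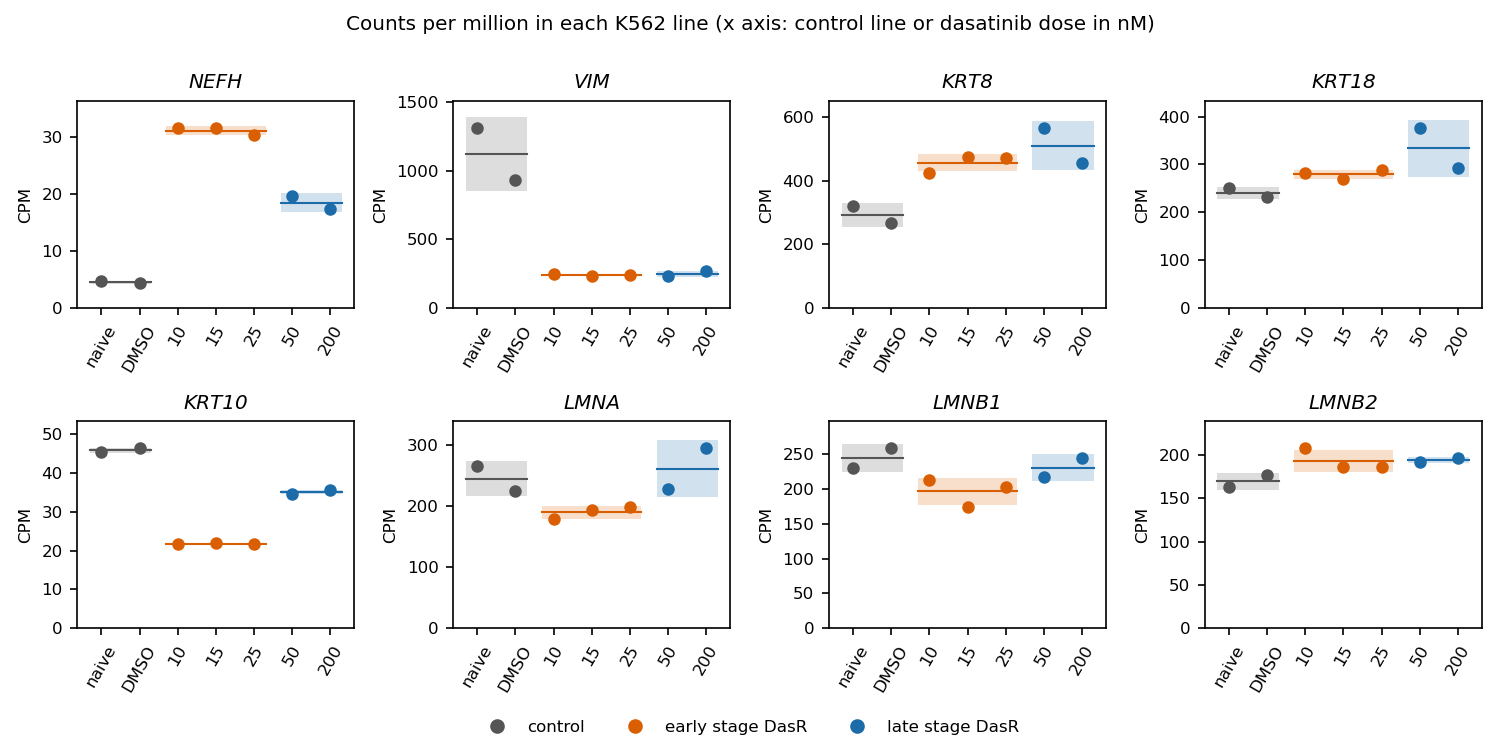
Level in CPM (y axes, linear and starting at 0) of the 8 members that passed the filter, in the drug naive, DMSO and 10 to 200 nM DasR lines (x axes). Each point is 1 library, lines are group means and bands are ± 1 SD of the 2 control, 3 early stage or 2 late stage lines. NEFH and KRT10 show late stage lines between controls and early stage lines, VIM shows all 5 DasR lines below both controls, and the lamin genes show small differences.

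LMNA encodes lamins A and C and lies on chromosome 1 from 156052364 to 156109872 on the plus strand. Its level was 266 CPM in the drug naive line and 225 CPM in the DMSO line. It was 179, 194 and 199 CPM in the early stage lines, and 229 and 295 CPM in the 50 and 200 nM DasR lines. The early stage lines were below both controls, and the late stage lines overlapped the controls. The log2 fold change was -0.38 in the early stage (FDR 0.0506), 0.07 in the late stage (FDR 0.742) and 0.45 late against early stage (FDR 0.0658), and none passed the threshold.

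LMNB1 and LMNB2 encode the B-type lamins, which stay farnesylated and attached to the nuclear membrane. LMNB1, on chromosome 5 from 126112315 to 126172712 on the plus strand, was at 230 and 259 CPM in the drug naive and DMSO lines, 212, 174 and 203 CPM in the early stage lines and 217 and 245 CPM in the late stage lines. Its early stage lines were below both controls, and its late stage lines overlapped the controls. LMNB2, on chromosome 19 from 2427636 to 2456957 on the minus strand, was at 163 and 176 CPM in the drug naive and DMSO lines, 208, 185 and 186 CPM in the early stage lines and 192 and 196 CPM in the late stage lines. Its 5 DasR lines were all above the controls by a small margin. Log2 fold changes against the controls were -0.33 (FDR 0.0451) and -0.10 (FDR 0.543) for LMNB1 in the early and late stage, and 0.17 (FDR 0.142) and 0.17 (FDR 0.193) for LMNB2, and none passed the threshold.

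Set against all genes, early stage against control called 1881 of 10452 genes, or 18.0%, with 828 higher (7.92%) and 1053 lower (10.1%). Among the 7 tested members other than NEFH, 2 were lower (VIM and KRT10) and 0 were higher. Late stage against control called 834 genes, or 7.98%, with 357 higher (3.42%) and 477 lower (4.56%), and among the 7 members 1 was lower (VIM). Late against early stage called 0 genes (0.0%) and 0 members in edgeR, with 3450 genes at an unadjusted p under 0.05 (33.0%), 3 of them members (NEFH, KRT10 and LMNA). DESeq2 called 1135 genes in that comparison and limma-voom called 0, and in DESeq2 NEFH (FDR 0.000166) and KRT10 (FDR 6.21e-06) passed 0.005. At an FDR under 0.05, 46.5% of all genes and 4 of the 7 members were called in the early stage (VIM, KRT10, KRT8 and LMNB1), 33.9% and 4 in the late stage (VIM, KRT8, KRT10 and KRT18), and 12.7% and 1 late against early stage (KRT10), beside NEFH. The comparisons of early and late stage with the controls share the same 2 control libraries. Leaving out the drug naive library lowered the genes called to 208 in the early and 33 in the late stage, and leaving out DMSO lowered them to 529 and 110, while VIM remained called in both stages and KRT10 in the early stage in each of the 7 fits that left 1 library out.

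Separation of the groups was common in these data. Over all genes tested, 48.8% had the 5 DasR lines all above or all below both controls, 25.1% above and 23.7% below. Of the 7 tested members other than NEFH, 3 were above (KRT8, KRT18 and LMNB2), 2 were below (VIM and KRT10), and LMNA and LMNB1 overlapped. Late and early stage lines did not overlap for 53.3% of all genes, and for 5 members, with NEFH lower (26.4% of all genes) and KRT10, KRT18, LMNA and LMNB1 higher (26.8%) in the late stage. The median log2 fold change of the 7 members was -0.33 in the early stage, 0.07 in the late stage and 0.22 late against early stage, beside 0.00307, -0.00358 and -0.00527 over all genes.

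**Figure D2:**
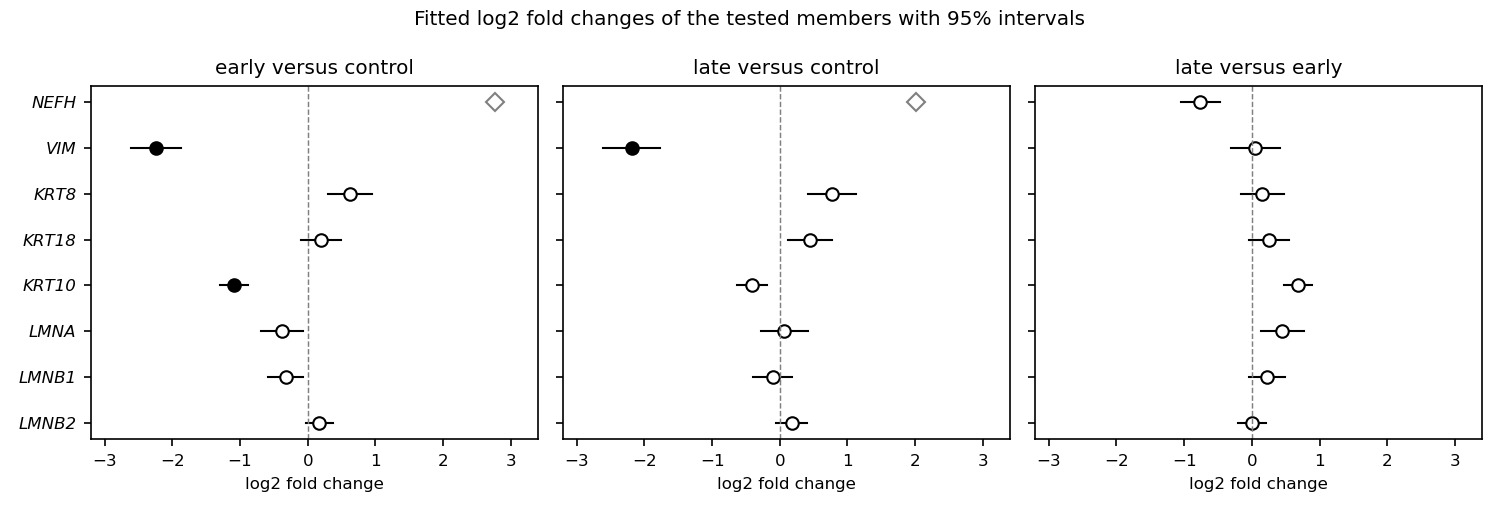
Fitted log2 fold change (x axes) of the 8 tested members (rows) in the 3 comparisons (panels), with 95% intervals as lines. Filled circles passed an FDR of 0.005 and open circles did not, and the grey diamonds of NEFH against the controls carry no interval because NEFH was chosen for that difference. VIM was at -2.24 and -2.19 against the controls and 0.05 late against early stage, and KRT10 at -1.09, -0.41 and 0.68.

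The make-up of the cytoplasmic filament transcripts differed between control and DasR lines when counts were scaled by gene length. The sum was taken over the 5 detected cytoplasmic members and the other 3 intermediate filament genes that passed the filter, KRT19 (a type I keratin), NES (nestin, a large filament protein of progenitor cells) and DES (desmin, the filament protein of muscle). VIM made up 57.1% of this sum in drug naive cells and 53.2% in DMSO cells, and between 14.9% and 19.4% in the DasR lines. KRT8 made up 16.5% and 18.0% in the controls and between 38.8% and 43.0% in the DasR lines. KRT18 made up 15.1% and 18.4% in the controls and 28.6% to 33.1% in the DasR lines. The leading transcript per length was thus VIM in both controls and KRT8 in all 5 DasR lines. NEFH remained a small part, at 0.12% and 0.14% in the controls, 1.31% to 1.44% in the early stage and 0.71% in both late stage lines. The sum itself was 1078 and 821 CPM per kb in the controls and between 591 and 740 CPM per kb in the DasR lines, while the 3 lamins together were at 194 and 195 CPM per kb in the controls and between 159 and 215 CPM per kb in the DasR lines.

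**Figure D3:**
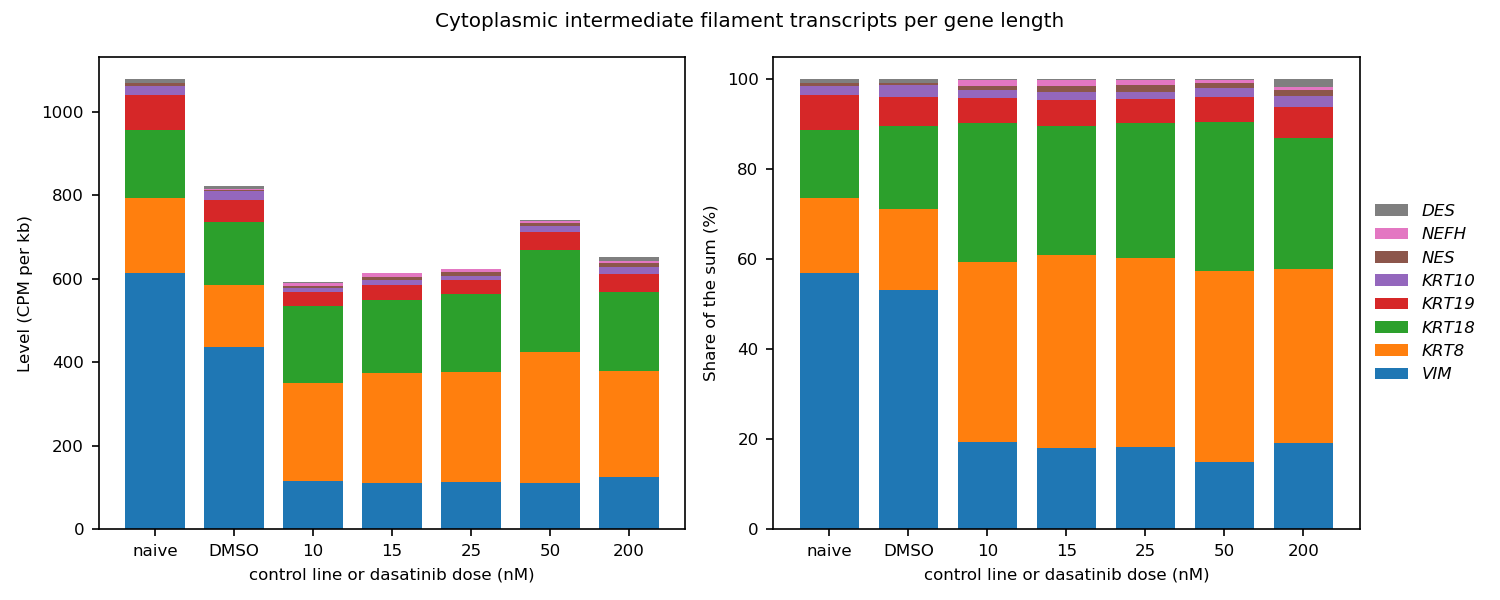
Transcript level of 8 cytoplasmic intermediate filament genes scaled by gene length, as stacked bars in CPM per kb (left y axis) and as a share of their sum in % (right y axis), with 1 bar a line. VIM made up 57.1% and 53.2% of the control bars and 14.9% to 19.4% of the DasR bars.

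Ratios between partners, per length, also describe each line. The ratio of KRT8 to KRT18, whose proteins pair 1 to 1, was 1.09 in drug naive and 0.98 in DMSO cells, 1.29, 1.51 and 1.40 in the 10, 15 and 25 nM DasR lines, and 1.28 and 1.33 in the 50 and 200 nM DasR lines, so that all DasR lines were above both controls. The ratio of LMNA to the sum of LMNB1 and LMNB2 was 0.690 and 0.526 in the drug naive and DMSO lines, 0.451, 0.576 and 0.537 in the early stage lines, and 0.585 and 0.693 in the late stage lines, and the groups overlapped. The ratio of VIM to the sum of KRT8 and KRT18 was 1.80 and 1.46 in the controls and between 0.197 and 0.282 in the DasR lines. These ratios are values of single libraries and were not tested.

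Most other genes of the family were at or near 0. Of 65 other intermediate filament genes, 40 were at or under 3 reads in all 7 lines and 3 passed the filter. KRT19 fell by 1.04 on the log2 scale in the early stage (edgeR FDR 0.00465), from 125 and 78.8 CPM in the drug naive and DMSO lines to 48.9, 53.0 and 49.1 CPM, and was at 60.3 and 65.2 CPM in the late stage. That call was lost in 6 of the 7 fits that left 1 library out (highest FDR 0.0196, all but the fit without DMSO), in limma-voom and with only the groups compared. DES, named after its values were seen, was at 16.4 and 13.7 CPM in the controls, under 1 CPM in the 3 early stage lines, 2.11 CPM in 50 nM DasR and 25.3 CPM in 200 nM DasR. Its log2 fold change of -4.99 in the early stage did not pass the threshold in edgeR (FDR 0.00574) or limma-voom (FDR 0.0838) and passed it in DESeq2 (FDR 2.18e-05), which also called DES late against early stage (FDR 0.00014). The 2 late stage lines stood far apart. NES was at 36.7 and 17.8 CPM in the controls and between 26.8 and 50.0 CPM in the DasR lines, with no call in edgeR, DESeq2 or limma-voom.

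Proteins that link filaments to each other, to junctions or to chaperones were read from a list of 22 genes, of which 16 were tested. In the early stage 1 was higher and 2 were lower, and in the late stage and late against early stage 0 were called in edgeR. HSPB1, a small heat shock protein that binds filaments, rose by 0.86 on the log2 scale in the early stage (FDR 0.00213, called in 3 of the 7 fits that left 1 library out). JUP, the desmosome and adherens junction protein plakoglobin, fell by 0.90 (FDR 0.000695, 5 of 7 fits), and KLHL24, a ubiquitin ligase subunit that acts on keratin, fell by 1.37 (FDR 0.0026, 4 of 7 fits). JUP was at 314 and 305 CPM in the drug naive and DMSO lines, 179, 158 and 165 CPM in the early stage lines and 197 and 227 CPM in the late stage lines. The 3 of 16 called in the early stage stand beside 18.0% of all genes, and the 5 called in DESeq2 beside 33.9%. In the late stage DESeq2 called 7, beside 23.9% of all genes, and limma-voom 1, where it called 788 of 10452 genes. At an FDR under 0.05 in edgeR, 4 were higher and 3 lower in the late stage, beside 33.9% of all genes. The list medians were 0.03 and 0.11 on the log2 scale in the early and late stage.

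Partners of the lamina and of the nuclear envelope were read from 25 genes, of which 20 were tested, with 2 higher and 3 lower in the early stage, beside 18.0% of all genes, 1 higher in the late stage, beside 7.98%, and 0 late against early stage. DESeq2 called 10, 5 and 1 of them, beside 33.9%, 23.9% and 10.9% of all genes. BANF1, the barrier-to-autointegration factor that ties DNA to lamina proteins, was at 76.4 and 78.2 CPM in the drug naive and DMSO lines, 118, 134 and 127 CPM in the early stage lines and 115 and 123 CPM in the late stage lines, and rose by 0.70 (FDR 0.00108) and 0.61 (FDR 0.00389) on the log2 scale. The early stage call of BANF1 held in 4 of the 7 fits that left 1 library out, and the late stage call in 0 of them (highest FDR 0.0256) and not with only the groups compared. TOR1AIP2, a cofactor of torsin ATPases, rose by 0.62 in the early stage (FDR 0.00352, 2 of 7 fits). SYNE3, the nesprin that binds plectin, fell by 1.64 in the early stage (FDR 0.000974, 4 of 7 fits). SUN2 and SUN1, inner membrane proteins that bind nesprins, fell by 0.73 (FDR 0.00216, 2 of 7 fits) and 0.54 (FDR 0.00381, 2 of 7 fits, and not with only the groups compared). SYNE3 was at 17.2 and 14.9 CPM in the controls and between 4.74 and 7.15 CPM in the DasR lines, with no overlap. It thus passed the filter on low counts through the controls alone. The list medians were 0.11 and 0.20 in the early and late stage.

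Enzymes that process or modify lamins were read from 14 genes, all of them tested. ZMPSTE24, the protease that cleaves prelamin A, was at 53.4 and 74.3 CPM in the drug naive and DMSO lines and between 106 and 126 CPM in the 5 DasR lines, and rose by 0.79 in the early stage (FDR 0.00359) and 0.95 in the late stage (FDR 0.00393) on the log2 scale. The early stage call of ZMPSTE24 held in 1 of the 7 fits that left 1 library out and the late stage call in 0 of them, and neither held with only the groups compared. PRKCB, a protein kinase C that phosphorylates lamin B, was at 918 and 774 CPM for the 2 control lines, 269, 207 and 246 CPM in the early stage lines, and 479 and 759 CPM in the 50 and 200 nM DasR lines. PRKCB fell by 1.83 in the early stage (FDR 0.00081, 6 of 7 fits), and its late stage value of -0.48 did not pass the threshold (FDR 0.142). The 2 genes called in the early and 1 in the late stage stand beside 18.0% and 7.98% of all genes. The other 12 genes of the list were not called against the controls in edgeR. DESeq2 called 3 genes of the list in the early and 2 in the late stage, beside 33.9% and 23.9% of all genes. The list medians were 0.09 and 0.13 in the early and late stage.

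Neuronal tubulins, microtubule proteins and axonal motors, the usual company of neurofilaments, were read from 24 genes, of which 16 were tested, with 2 higher and 2 lower in the early stage, beside 18.0% of all genes, 0 higher and 2 lower in the late stage, beside 7.98%, and 0 called late against early stage in edgeR. DESeq2 called 6, 5 and 4 of them, beside 33.9%, 23.9% and 10.9% of all genes. STMN3, a stathmin that destabilizes microtubules, rose by 1.76 on the log2 scale in the early stage (FDR 0.000459, 6 of the 7 fits that left 1 library out) and TUBB2B, a beta tubulin of developing neurons, rose by 1.40 (FDR 0.00262, 3 of 7 fits). KIF5A, the kinesin heavy chain known to carry neurofilaments, fell by 1.53 in the early stage (FDR 0.000359, 7 of 7 fits) and by 1.84 in the late stage (FDR 0.000698, 6 of 7 fits), from 128 and 111 CPM in the drug naive and DMSO lines to between 29.8 and 43.3 CPM. MAP1B, a microtubule-associated protein of growing axons, fell by 1.20 (FDR 0.00434, 2 of 7 fits) and 2.23 (FDR 0.00142, 3 of 7 fits). KIF1A, a motor for synaptic vesicle precursors named after its values were seen, was at 1.14 and 1.12 CPM for the 2 control lines, 23.1, 0.54 and 32.3 CPM in the 10, 15 and 25 nM DasR lines and 89.4 and 378 CPM in the 50 and 200 nM DasR lines, with no call against the controls in edgeR (FDR 0.071 and 0.0143) or limma-voom. DESeq2 called KIF1A in the late stage (FDR 2.07e-05), but the gene passed the filter on low counts through DasR lines alone. The list medians were 0.27 and 0.01 in the early and late stage.

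The calls in these supporting lists were less firm than those of VIM and KRT10. The number called over all genes also fell when a control library was left out, as given above. Such losses were thus not particular to these lists. Counting also the marker genes described next, 31 calls were made against the controls, all with the same direction in every fit run, of which 3 held in each of the 7 fits that left 1 library out (KIF5A, TFRC and ANK1 in the early stage) and 28 were lost in at least 1 of them. Of the 31, 28 were lost without drug naive, 20 without DMSO, 14, 17 and 20 without the 10, 15 and 25 nM DasR lines, and 8 each without the 50 and the 200 nM DasR line. Of the 97 tested genes of these lists and of the marker lists, edgeR called 24 in the early and 7 in the late stage, beside 18.0% and 7.98% of all genes, and DESeq2 called 46 and 24, beside 33.9% and 23.9% of all genes. Late against early stage, 0 of the 97 were called in edgeR and in limma-voom, 38 had an unadjusted p under 0.05, beside 33.0% of all genes, and DESeq2 called 19, beside 10.9%.

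Marker genes of other cell types were read in the same way, because vimentin, keratins and neurofilaments mark such types. Of 16 neuronal markers, 6 were at or under 3 reads in all lines (ELAVL4, SNAP25, DCX, NEUROD1, STMN2 and NCAM1) and 3 were tested, with 0 called in edgeR and limma-voom. DESeq2 called 1 in the early and 0 in the late stage, beside 33.9% and 23.9% of all genes. Their summed level was 85.8 and 39.3 CPM in the drug naive and DMSO lines and between 48.2 and 87.3 CPM in the DasR lines, with no separation of the groups, and ENO2 was the most abundant. ENO2, an enolase that other cells also express, was at 72.1 and 26.7 CPM in the drug naive and DMSO lines and between 27.8 and 52.5 CPM in the DasR lines. The 3 tested had median log2 fold changes of 0.41 in the early and 0.73 in the late stage. At an FDR under 0.05, 1 was higher in each stage, where 46.5% and 33.9% of all genes were called in either direction. The part of these genes in the NEFH values was not tested.

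Of 14 epithelial markers, 5 were at or under 3 reads in all lines (CDH1, KRT7, KRT5, KRT14 and GRHL2) and 4 were tested. In the early stage 2 were lower, beside 10.1% of all genes lower (KRT19 and MUC1, called in 1 and 2 of the 7 fits that left 1 library out). The summed level was 231 and 196 CPM in the controls and between 135 and 167 CPM in the DasR lines, with KRT19 the most abundant, whereas KRT8 and KRT18 had higher values in the DasR lines. Of 14 fibroblast markers, 4 were at or under 3 reads in all lines (PDGFRA, THY1, POSTN and FAP) and 2 were tested. Their summed level was 265 and 162 CPM for the 2 control lines, 96.8, 122 and 77.0 CPM in the early stage lines and 65.2 and 42.4 CPM in the late stage lines, with FN1 the most abundant, and COL6A3 fell by 6.65 in the early stage (FDR 0.000496) and by 5.63 in the late stage (FDR 0.0021) on the log2 scale. The COL6A3 calls held in 6 and 2 of the 7 fits that left 1 library out, and neither passed in limma-voom. COL6A3 passed the filter on low counts through the controls alone, where its level was high. As 1 of 2 called lower it stands beside 10.1% of all genes lower in the early and 4.56% in the late stage. FN1 was at 111 and 69.0 CPM in the drug naive and DMSO lines, 83.3, 107 and 62.6 CPM in the early stage lines and 45.6 and 31.8 CPM in the late stage lines, so that its early stage lines overlapped the controls. FN1 was not called in edgeR or limma-voom, and DESeq2 called it in the late stage (FDR 0.000206) but not in the early stage (FDR 0.739). The part of these markers in the VIM result was not tested. In bulk samples, fewer cells of a type and less RNA per cell cannot be told apart.

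Of 18 erythroid genes listed, 17 were tested, with 6 higher and 0 lower in the early stage, beside 7.92% of all genes higher, and 2 higher and 0 lower in the late stage, beside 3.42%, and list medians of 1.19 and 0.43 on the log2 scale. DESeq2 called 14 in the early and 2 in the late stage, beside 33.9% and 23.9% of all genes. Limma-voom called 8 and 2, where it called 1918 and 788 of all 10452 genes. The summed level was 4668 and 4278 CPM in the drug naive and DMSO lines, 13791, 15297 and 12072 CPM in the 10, 15 and 25 nM DasR lines, and 7957 and 5584 CPM in the 50 and 200 nM DasR lines, with HBG2 the most abundant, so that the early stage lines were highest. The list median late against early stage was -0.75 on the log2 scale and 16 of the 17 values were negative, beside -0.76 for NEFH. Of the 17, 15 had an unadjusted p under 0.05 in edgeR, beside 33.0% of all genes. In that comparison 0 were called in edgeR and limma-voom, and DESeq2 called 6, beside 10.9% of all genes. HBA2, an alpha globin gene, rose by 3.51 on the log2 scale in the early stage (FDR 0.00307), HBA1 by 3.06 (FDR 0.00469) and HBG1, a fetal globin gene, by 1.24 (FDR 0.0024). HBA1 and HBA2, and HBG1 and HBG2, are near-identical copies, so that their split of reads is uncertain. TFRC, the transferrin receptor, rose by 1.13 and 0.85 and ANK1, erythrocyte ankyrin, by 1.08 and 0.70 in the early and late stage, and EPOR, the erythropoietin receptor, by 0.99 in the early stage. Of the 7 fits that left 1 library out, the early stage calls held in 7 for TFRC and ANK1, 4 for EPOR, 3 for HBG1 and 2 for HBA1 and HBA2. The late stage calls held in 0 for TFRC and 1 for ANK1, and neither held with only the groups compared. Of 10 myeloid markers, MPO and ELANE were at or under 3 reads in all lines and 4 were tested. CD68 was lower in the early stage by 1.65 on the log2 scale (5 of 7 fits), which is 1 of 4, beside 10.1% of all genes lower. At an FDR under 0.05 in edgeR, 3 of the 4 were lower in the early stage, where 46.5% of all genes were called in either direction. DESeq2 called 3 in the early and 0 in the late stage, beside 33.9% and 23.9% of all genes. Late against early stage it called 2, beside 10.9%. The list medians were -1.24, -0.14 and 1.10 on the log2 scale in the early stage, the late stage and late against early stage. LYZ was the most abundant, and the summed level was 200 and 183 CPM in the controls and between 62.8 and 212 CPM in the DasR lines. The part of these genes in the values of the filament genes was not tested.

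Genes near NEFH were set beside it to show its surroundings on chromosome 22. Of the 8 nearest protein-coding genes on each side, 12 of 16 were tested. In edgeR, 0 were higher and 3 were lower in the early stage (EMID1 by 3.38, KREMEN1 by 1.03 and NIPSNAP1 by 0.92 on the log2 scale, with FDRs of 0.000815, 0.00455 and 0.00379), and in the late stage 0 were higher and 1 was lower (EMID1, by 2.88). These counts stand beside 18.0% and 7.98% of all genes called. EMID1, at 19.9 and 14.1 CPM in the drug naive and DMSO lines, passed the filter on low counts through the controls alone. DESeq2 called 4 and 3 of the 12, beside 33.9% and 23.9% of all genes. Limma-voom called 2 and 0, without KREMEN1 in the early and EMID1 in the late stage. Of the 7 fits that left 1 library out, the early stage calls held in 6 for EMID1 and 2 for KREMEN1 and NIPSNAP1, and the late stage call of EMID1 in 2. The tested genes nearest to NEFH on either side were AP1B1, at -0.01 and 0.17 on the log2 scale in the early and late stage, and THOC5, at -0.25 and -0.08, and neither was called in edgeR, DESeq2 or limma-voom. GAS2L1, which crosslinks actin and microtubules, had the highest value of the neighbors, at 0.78 (FDR 0.0215) and 1.17 (FDR 0.00983), and was not called in edgeR or limma-voom. DESeq2 called GAS2L1 higher in the late stage (FDR 0.000246), and UQCR10, a subunit of respiratory complex III, higher in both (FDR 0.00039 and 2.01e-05). GAS2L1 was under 10 CPM in both control lines, so that it passed the filter on low counts through the DasR lines alone. The median over the 12 was -0.17 in the early stage, -0.03 in the late stage and 0.19 late against early stage. The remaining neighbors, RHBDD3, EWSR1, NF2, UQCR10, ASCC2 and MTMR3, were not called in edgeR, and RASL10A, RFPL1, CABP7 and ZMAT5 did not pass the filter.

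**Figure D4:**
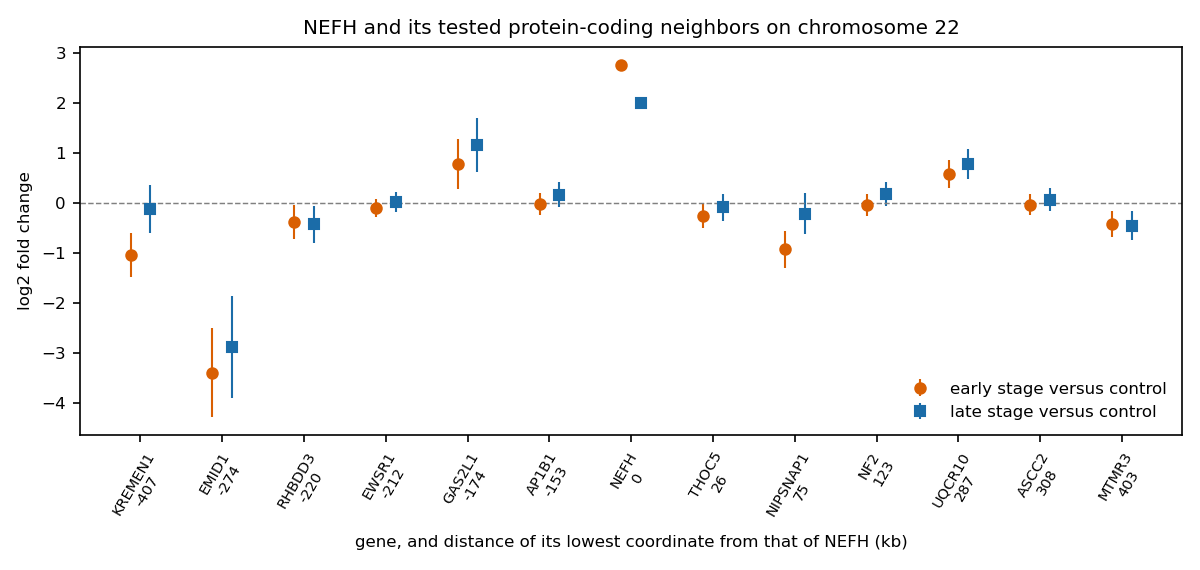
Fitted log2 fold change against the controls (y axis) of NEFH and its 12 tested protein-coding neighbors in chromosome order (x axis, with the distance of each gene's lowest coordinate from that of NEFH in kb). Circles are the early and squares the late stage, with 95% intervals except for NEFH, which has no test. NEFH, at 2.77 and 2.01, was chosen for this difference, so that its place above the neighbors was fixed beforehand. Of the 12 neighbors the highest is GAS2L1 at 0.78 and 1.17.

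The genes whose pattern was most like that of NEFH were found by the root mean square difference between log2 CPM profiles over the 7 libraries, each profile centred on its own mean, among the 10451 other genes tested. The 8 nearest were HSPA1A (0.158), TBC1D1 (0.159), FOXO1 (0.196), VAV2 (0.207), ABL1 (0.207), FGD4 (0.209), BCR (0.237) and APBB2 (0.246), beside a median of 1.17 over all genes. They were picked for likeness to NEFH, itself chosen for its rise, so that the shared pattern follows from the choice. HSPA1A, an inducible heat shock protein 70 gene with a near-identical copy in HSPA1B, was at 82.6 and 66.2 CPM in the drug naive and DMSO lines, 397, 566 and 441 CPM in the early stage lines and 314 and 262 CPM in the late stage lines. ABL1, which encodes the kinase that dasatinib inhibits, was at 349 and 319 CPM for the 2 control lines, 2557, 2021 and 1686 CPM in the early stage lines and 1390 and 918 CPM in the late stage lines. BCR, its fusion partner on the same chromosome as NEFH from 23521891 to 23660224, was at 195 and 180 CPM for the 2 control lines, 1379, 1097 and 933 CPM in the early stage lines and 757 and 463 CPM in the late stage lines. Counts are per gene, so that reads of the BCR::ABL1 fusion transcript are not separate from those of ABL1 and BCR. Among the DasR lines ABL1 and BCR were lower at each higher dose, whereas the 3 early stage values of NEFH were close together. FOXO1, a forkhead transcription factor, and VAV2, a guanine nucleotide exchange factor, were low, at 2.04 to 2.75 CPM without and 7.41 to 15.5 CPM with resistance. FOXO1, VAV2, FGD4 and APBB2 were under 10 CPM in both control lines. These genes passed the filter on low counts through the DasR lines alone. Among the members, KRT8 was nearest to NEFH at 0.881 and VIM farthest at 2.13.

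**Figure D5:**
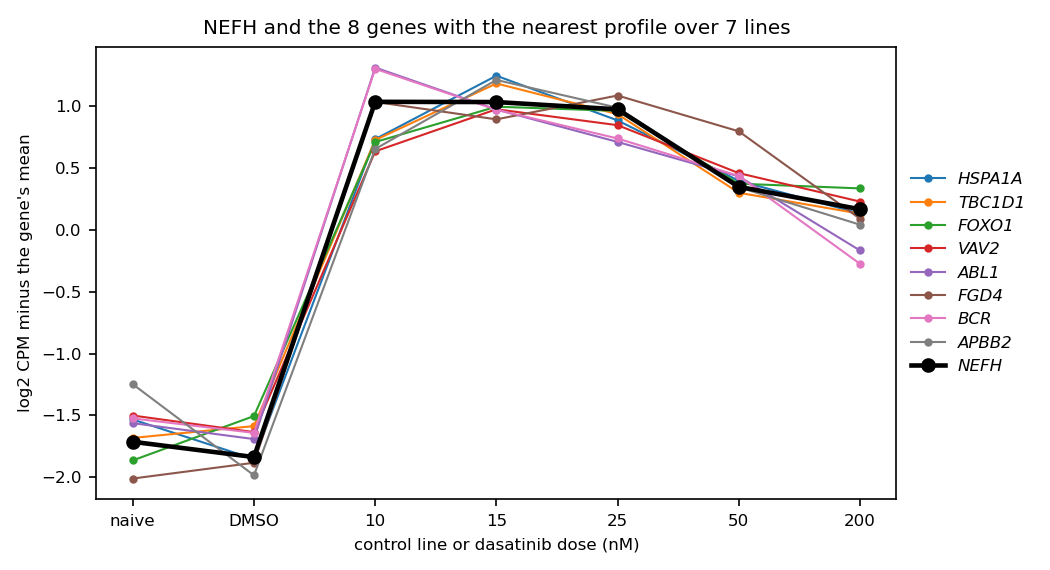
Log2 CPM of NEFH (thick black line) and of the 8 genes with the nearest profile (thin lines), each minus its own mean over the 7 lines (y axis), by line (x axis). The 8 genes were picked for likeness to NEFH, so that low values in both controls and high values in the early stage follow from the choice. BCR and ABL1 were the lowest of the 9 genes in 200 nM DasR.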

How the data were processed

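RNA from 7 K562 lines, 1 library each, had been depleted of ribosomal and non-coding RNA, prepared with a directional kit and sequenced as paired ends. The labels also give the molecule as polyA RNA. Alignment by the authors was to hg19, with STAR (version not given in the sources used here), and the deposited counts are raw reads per gene from featureCounts, as the submitters' processing notes name it together with FastQC and edgeR. The deposited table held 25702 gene IDs, of which 23738 were named, and 0 columns were left unassigned. Of the deposited differential expression tables, only gene names, chromosomes and lengths in bases were used, and their fold changes, mean levels, p-values and FDRs were not.

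The members and lists were chosen with earlier results of these data known. Counts were fitted with edgeR 4.0.16 (TMM scaling, quasi-likelihood test, 1 coefficient a group, all 7 libraries) over the 10452 genes reaching 10 CPM in 2 or more libraries, at a Benjamini-Hochberg FDR under 0.005. Levels are CPM of the library totals, or CPM per kb of the deposited length. The biological coefficient of variation was 0.161. With 200 of 10452 genes changed by 2 on the log2 scale in simulated counts for early stage against control, edgeR called 200 genes, 200 of them true. DESeq2 called 204, 4 of them false, and limma-voom called 200, 0 of them false. The simulated lines of a group were true replicates with the same spread for all genes, whereas the real lines of a group differ in dose. The simulation therefore checks the code only and does not show how firm the reported calls are. Alternatives were DESeq2 1.42.0, limma-voom (limma 3.58.1), other scalings, filters and an FDR of 0.05, only the groups compared, and leaving out each library with the genes tested held fixed. Positions are from GENCODE for GRCh37, promoter windows from RefSeq for GRCh38.p14. Genes were named by rule: all members, the list genes past FDR 0.005, the neighbors of NEFH, the 8 genes with the nearest profile and the most abundant gene of each marker list. DES, NES and KIF1A, and the antisense and pseudogene rows, lie outside it and were named after their values were seen.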

Additional observations from a re-analysis of the deposited data

How the results depend on the processing

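The counts of genes called moved with the tool and the threshold. In early stage against control, 1881 genes were called in the reported fit, 3548 in DESeq2 and 4865 at an FDR of 0.05, and leaving out each library gave 208 to 2066. In late stage against control, 834 were called, 2503 in DESeq2, 1287 with no filter on low counts, 257 with only the groups compared, 3542 at an FDR of 0.05, and 33 to 596 with a library left out. Late against early stage called 0, 1135 in DESeq2, 295 with no filter, 1328 at an FDR of 0.05, and 0 to 198 with a library left out, 198 without 50 nM DasR and 1 without 25 nM DasR. The members other than NEFH called were 2 in the early stage (3 in DESeq2 and with no filter, 4 at an FDR of 0.05, 2 in every fit with a library left out), 1 in the late stage (2 in DESeq2 and with no filter, 4 at an FDR of 0.05) and 0 late against early stage (1 in DESeq2, 1 at an FDR of 0.05). The calls of VIM in both stages and of KRT10 in the early stage kept their side of 0.005 and their direction in all settings run.

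Members near no difference changed sign when 1 library was left out, all uncalled. The log2 fold change of LMNA in late stage against control ranged from -0.12 (without 200 nM DasR) to 0.23 and was -0.07 without DMSO. Late against early stage, that of LMNB2 ranged from -0.031 (without 15 nM DasR) to 0.061 and was -0.025 without 25 nM and -0.00481 without 200 nM DasR, that of KRT8 ranged from -0.023 (without 50 nM DasR) to 0.31, and that of VIM from -0.029 (without 200 nM DasR) to 0.13. Where the cause of a changed count is not given by the setting itself, the cause was not tested. No paired analysis was possible because the labels give the lines no shared replicate numbers. Where leaving out a library left a group with 1 line, that line was taken to vary like the others. With 99 reads for NEFH in the drug naive library, the control level of NEFH is the least precisely counted of the tested members.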
